A study of Mus musculus with 15 samples.

Results

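The solute carriers are the membrane proteins that move amino acids, sugars, nucleotides, metals, ions, lipids and vitamins across the plasma membrane and the membranes of organelles. Their genes were taken from the array annotation by name, as every symbol made of Slc, a family number and a letter, with Slc2a1, Slc2a3, Slc16a1 and Slc16a3 left out. This gave 322 genes with 468 probes among 16593 annotated genes. Of these, 112 (34.8%) had a probe that all 3 arrays of some group detected (detection p under 0.05), against 6838 (41.2%) of all annotated genes. Each gene was read from the brightest of its probes that passed, and the other 210 carriers have no level here.

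Expression was measured on 15 single-colour bead arrays of thymic cells sorted from mice aged 4 weeks, with 3 arrays in each of 5 groups. All mice carried floxed Dicer alleles (Dicer lox/lox), Dicer being the enzyme that cuts precursors into mature microRNAs. Wild-type (WT) mice lacked Cre (CD4-Cre -/-), and knock-out (KO) mice carried Cre under the CD4 promoter (CD4-Cre +/-), which acts in thymocytes once they express CD4. Invariant natural killer T (iNKT) cells, which recognise lipids on CD1d, were sorted as HSA low, TCRβ int and CD1d tetramer + cells, and T cells as HSA low, TCRβ + and CD1d tetramer - cells. WT iNKT cells were divided into stage 1-2 (NK1.1 -, CD44 high or low) and stage 3 (NK1.1 +, CD44 high), whereas KO iNKT cells were not divided, so that loss of Dicer and a shift of stage cannot be told apart in them. The labels do not say that arrays of a group came from separate animals, so the errors may be technical.

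Lymphocytes that grow take up more leucine, glutamine, glucose, nucleosides and iron than resting ones, and the carriers for these nutrients are raised by antigen receptor and growth signals. Slc7a5 and Slc3a2 form the light and the heavy chain of the exchanger that imports leucine and other large neutral amino acids. Other carriers face the lumen of an organelle: the Slc15, Slc29 and Slc66 families have lysosomal members, Slc25 carriers lie in the inner mitochondrial membrane, and Slc35 carriers feed sugar nucleotides to the endoplasmic reticulum and Golgi.

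Promoters are shown, as examples, for 4 carriers whose level differed among the groups and whose upstream region held a motif of a nutrient- or metal-dependent factor. Other carriers called in a comparison, Slc25a33 and Slc19a1 among them, held such a motif too. Some genes have more than 1 promoter, and 1 is shown for each. RefSeq promoters (250 bases before to 50 after a transcription start) matched 86 of the 112 carriers, with 109 promoters among 32841 in all. The E-box CACGTG, which MYC, MAX and USF proteins bind, stood on either strand in 15 of the 109 promoters (13.8%), of 13 genes, and in 7.15% of all promoters. The core of the metal response element, bound by the zinc-sensing factor MTF1, was searched as TGCACNC (18.3% of the carriers' promoters, 12.6% of all) and as TGCGCNC (23.9% and 15.4%). Cores of the amino acid response element (TGATGNAA, 1.83% and 3.97%), of PU.1 and other ETS factors (GAGGAAGT, 0.917% and 3.2%) and of T-box factors (AGGTGTGA, 0.917% and 1.28%) were in few of them. Among the carriers' promoters 1 pair of matches to different motifs overlapped. A match describes the letters alone, and the promoters were not matched for base composition.

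The sequences are the 250 bases before the start, 5′ to 3′ on the strand of the gene, build GRCm38.p6, with the motif in capitals. For the nucleoside carrier Slc29a1 (chr17:45595247-45595496, minus strand), the mitochondrial citrate carrier Slc25a1 (chr16:17928220-17928469, minus strand) and the potassium-chloride cotransporter Slc12a7 (chr13:73763447-73763696, plus strand) the capitals mark the E-box, which begins 75, 239 and 38 bases before the start. For the zinc exporter Slc30a1 (chr1:191906531-191906780, plus strand) they mark the metal response element core on the opposite strand, 43 bases before the start.
Slc29a1: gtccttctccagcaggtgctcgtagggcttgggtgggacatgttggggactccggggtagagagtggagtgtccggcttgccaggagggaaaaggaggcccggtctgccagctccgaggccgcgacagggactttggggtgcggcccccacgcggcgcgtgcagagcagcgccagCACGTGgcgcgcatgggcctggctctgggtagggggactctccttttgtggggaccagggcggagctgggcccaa
Slc25a1: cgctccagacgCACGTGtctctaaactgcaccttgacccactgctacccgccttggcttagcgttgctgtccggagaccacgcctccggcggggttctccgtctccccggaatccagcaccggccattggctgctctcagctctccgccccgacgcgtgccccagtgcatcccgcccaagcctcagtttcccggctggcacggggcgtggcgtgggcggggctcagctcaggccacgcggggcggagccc
Slc12a7: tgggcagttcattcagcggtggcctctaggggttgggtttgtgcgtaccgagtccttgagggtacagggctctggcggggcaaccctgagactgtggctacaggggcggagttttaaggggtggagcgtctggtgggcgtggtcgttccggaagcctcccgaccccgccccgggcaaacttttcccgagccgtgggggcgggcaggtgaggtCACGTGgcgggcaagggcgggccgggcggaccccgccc
Slc30a1: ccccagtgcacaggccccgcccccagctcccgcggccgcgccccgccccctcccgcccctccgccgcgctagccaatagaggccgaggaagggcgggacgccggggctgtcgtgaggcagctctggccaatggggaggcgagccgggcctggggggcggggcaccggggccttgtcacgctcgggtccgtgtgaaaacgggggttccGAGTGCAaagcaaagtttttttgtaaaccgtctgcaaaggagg

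Levels are log2 intensities after background correction and quantile normalization, and a gene is said to be called, to rise or to fall where limma gave a Benjamini-Hochberg adjusted p under 0.05 over the 6838 genes of a comparison. Fold changes are log2 differences of group means ± standard error, and a level of one gene was not set against that of another. Between 29.2% (WT stage 3 replicate 2) and 40.8% of probes (WT stage 1-2 replicate 3) were detected per array, and WT stage 1-2 replicate 1 had 30.3%. Dicer1 itself was not called in KO iNKT against WT stage 1-2 cells (0.08, adjusted p = 0.906) or in KO T against WT T cells (-0.06, adjusted p = 0.977). It was lower in KO iNKT than in WT stage 3 cells (-0.84, adjusted p = 0.0167) and higher in WT stage 3 than in stage 1-2 cells (0.93, adjusted p = 0.0143). Whether its probe lies in the deleted part of the gene is not known, so this level does not check the genotypes.

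Markers of other cell types were high in part of the iNKT samples. The 12 tested of 15 myeloid markers (S100a8, Lyz2 and Tyrobp among them) had array means of 9.31 to 9.82 in WT stage 1-2, 5.28 to 6.70 in WT stage 3 cells and 9.57 to 11.58 in KO iNKT cells, and of 4.45 to 4.50 in the T cells, where 11 of the 12 were detected on no array. Cd14, of this list, and Cd79b, of the B cell list, were detected on no WT stage 3 array. The 5 tested of 8 markers of B cells and antigen-presenting cells lay at 8.84 to 10.40, 5.86 to 6.82 and 9.26 to 10.84 in the same iNKT groups and at 4.55 to 4.97 in the T cells. The 4 tested of 6 markers of double-positive thymocytes lay at 5.29 to 6.29, 4.87 to 5.19 and 6.17 to 6.83 in these iNKT groups and at 4.68 to 5.0 in the T cells. The labelled cells were checked with 6 tested iNKT markers, though Zbtb16 and Slamf6 had no probe past the filter. These lay at 7.06 to 7.54 in WT stage 1-2, 8.35 to 8.50 in WT stage 3, 6.38 to 6.72 in KO iNKT and 5.16 to 6.05 in T cell arrays. The 6 tested T cell markers lay at 8.09 to 8.86 in the iNKT and 10.27 to 10.54 in the T cell arrays. In sorted bulk samples fewer cells of a type and less RNA per cell cannot be told apart.

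Of the 112 carriers 49 were detected on all 3 arrays of each of the 5 groups, and 12 passed the detection filter through 1 group alone. These were Slc2a8, Slc38a10 and Slc8a1 through WT stage 1-2, Slc1a6 and Slc22a7 through WT stage 3, Slc27a4, Slc35d3 and Slc39a14 through KO iNKT, Slc12a9, Slc28a2 and Slc47a2 through WT T and Slc35a3 through KO T cells. For such genes a higher level in that group follows in part from the filter. The last carriers inside the threshold were Slc22a7 (detection p 0.0476), Slc39a14 (0.0451) and Slc52a3 (0.0439), and the first outside were Slc25a32 and Slc30a4 (0.0501 each) and Slc43a2 (0.0514). Of the 112 names 3 belong to no transporter: Slc9a3r1 and Slc4a1ap encode adaptor proteins, and Slc7a6os is the gene opposite Slc7a6.

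By the moderated F-test of limma 55 of the 112 carriers (49.1%) differed somewhere among the 5 groups, against 48.4% of all genes, a share near that of all genes. The median range between the highest and the lowest group mean was 0.86 for the carriers and 0.84 for all genes. By cargo, the 55 were 9 of 16 carriers of amino acids and peptides, 3 of 8 of sugars, 2 of 6 of monocarboxylates and organic ions and 9 of 19 mitochondrial carriers. They further held 9 of 19 carriers of nucleosides and nucleotide sugars, 9 of 15 of metals and heme, 6 of 15 of inorganic ions, 6 of 11 of lipids and vitamins and 2 of the 3 that are no transporters. Wide ranges were those of Slc12a7 (2.84), Slc39a4 (2.84), Slc7a5 (2.23) and Slc29a1 (2.12). Slc2a6 and Slc15a3, which no T cell array detected, have no such range, only bounds.

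**Figure D1:**
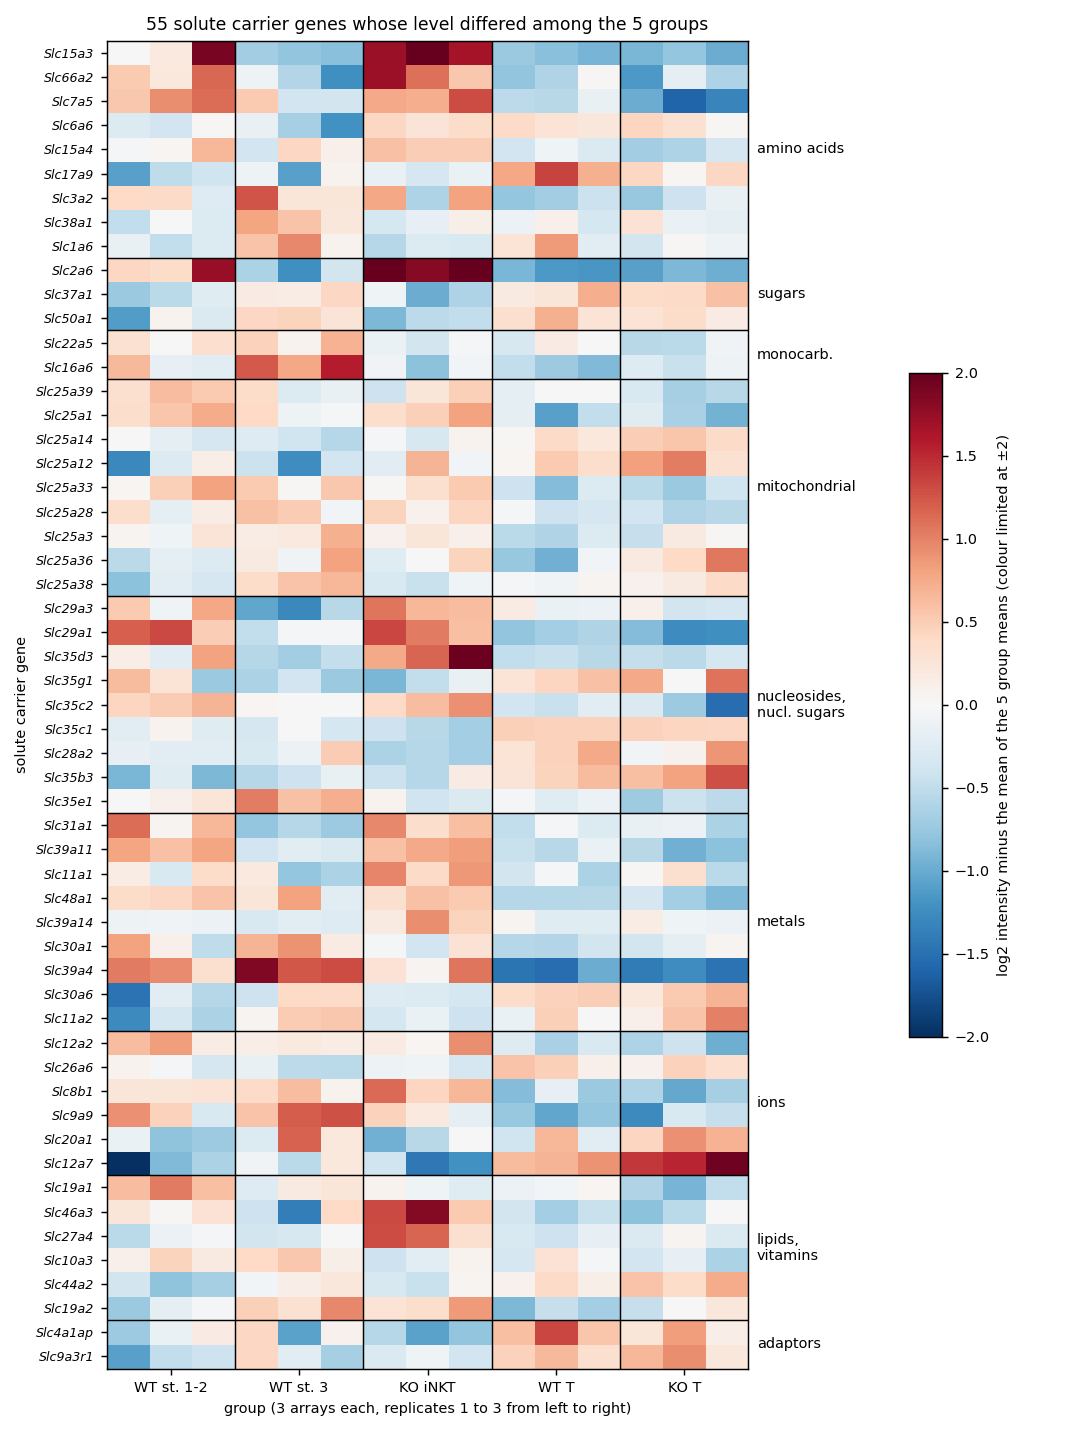
Log2 intensity of the 55 solute carriers that the F-test called, as the difference from the mean of the 5 group means, with 1 column per array and 1 row per gene, grouped by cargo. Slc15a3, Slc2a6 and Slc29a1 are high in WT stage 1-2 and KO iNKT arrays, Slc39a4 is high in the iNKT arrays, and Slc12a7 is high in the T cell arrays.

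The comparison of WT stage 3 with WT stage 1-2 cells asks how carriers change as iNKT cells mature in the thymus. In stage 3 cells 14 carriers rose and 10 fell, 21.4% of the 112 where 20.1% of all genes were called (9.11% and 11%). Of the rises, Slc1a6 passed the filter through WT stage 3 cells alone, so its direction follows in part from the filter. The rises were led by the metal importer Slc11a2 (1.12 ± 0.27), the monocarboxylate carrier Slc16a6 (1.10 ± 0.28), Slc12a7 (1.09 ± 0.34) and the mitochondrial glycine carrier Slc25a38 (0.99 ± 0.20). The falls were led by the lysosomal glucose transporter family member Slc2a6 (-1.58 ± 0.30), the lysosomal peptide carrier Slc15a3, the lysosomal nucleoside carrier Slc29a3 (-1.37 ± 0.25) and the copper importer Slc31a1. Of the 24 calls 9 held with each array left out in turn: Slc11a2, Slc16a6 and Slc25a38 among the rises and Slc2a6, Slc15a3, Slc29a3, Slc31a1, Slc29a1 and Slc39a11 among the falls. The count was 15 without WT stage 1-2 replicate 1, 14 without WT stage 3 replicate 2, and 7 with median scaling, where Slc16a6, Slc25a38, Slc12a7, Slc44a2, Slc29a1, Slc29a3 and Slc39a11 remained. The authors' normalized table gave 8 rises and 10 falls, and quantile normalization without background correction 7 and 10. Markers of other cells moved in the same comparison, with 11 of 12 myeloid markers, 5 of 5 markers of B and antigen-presenting cells and 1 of 4 markers of double-positive thymocytes lower in stage 3. Their part in the result was not tested.

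In KO iNKT against WT stage 3 cells 16 carriers were higher and 13 lower, 25.9% of the 112 where 29.9% of all genes were called (16% and 14%). Of the higher ones Slc27a4, Slc35d3 and Slc39a14 passed the filter through KO iNKT cells alone. Of the lower ones Slc1a6 and Slc22a7 passed through WT stage 3 cells alone. The direction of these calls follows in part from the filter. The higher ones were led by Slc2a6 (2.71 ± 0.30), Slc15a3 (at least 3.93-fold), the orphan nucleotide sugar family member Slc35d3 (at least 2.34-fold, though it passed the filter through KO iNKT cells alone), Slc66a2 (1.75 ± 0.35), Slc29a3 (1.75 ± 0.25) and the lysosomal carrier Slc46a3 (1.69 ± 0.37). The lower ones were led by Slc16a6 (-1.50 ± 0.28), the anion exchanger Slc4a3 (at least 1.92-fold lower), Slc22a7, the sugar efflux carrier Slc50a1 (-1.01 ± 0.25), the zinc importer Slc39a4 (-0.99 ± 0.28) and Slc35e1 (-0.98 ± 0.19). A second probe of Slc4a3 gave 0.19 with an adjusted p of 0.645, so its direction is uncertain. Of the 29 calls 17 held with each array left out. Slc27a4 and Slc35d3 were among the 17, but the detection filter was not repeated in these fits. The count was 19 without KO iNKT replicate 2. With median scaling 11 were higher and 4 lower, against 16 and 13, and the 15 were among the 17. All 12 tested myeloid markers and 5 of 5 markers of B and antigen-presenting cells were higher in KO iNKT cells in this comparison, as were 3 of 4 markers of double-positive thymocytes, and 5 of 6 iNKT markers were lower. Their part in the result was not tested. This comparison and that of the WT stages share the WT stage 3 arrays, so their values for a gene are not independent.

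Against WT stage 1-2 cells, KO iNKT cells differed in few carriers: 2 were higher and 1 lower, 2.68% of the 112 where 3.01% of all genes were called (1.96% higher and 1.05% lower). Both higher carriers, Slc27a4 and Slc35d3, passed the detection filter through KO iNKT cells alone. They could be tested only because they were high there. The fatty acid carrier Slc27a4 stood at 4.33, 4.75 and 4.83 on the WT stage 1-2 arrays and at 6.18, 6.04 and 5.19 on the KO iNKT arrays. It was 1.17 ± 0.25 higher (adjusted p = 0.0148), with no overlap, and was detected in no other group on more than 1 array. Slc35d3 stood at 5.11, 4.77 and 5.79 in WT stage 1-2 cells, against 5.74, 6.15 and 6.95 in KO iNKT cells, 1.06 ± 0.28 higher (adjusted p = 0.0491), and the arrays overlapped. The reduced folate carrier Slc19a1 stood at 7.13, 7.56 and 7.11 in WT stage 1-2 cells, against 6.58, 6.43 and 6.27 in KO iNKT cells, 0.84 ± 0.21 lower (-0.84, adjusted p = 0.0321). None of the 3 calls held with each array left out: the highest adjusted p was 0.0946 for Slc27a4, 0.195 for Slc35d3 and 0.144 for Slc19a1. The count was 0 without WT stage 1-2 replicate 1 or KO iNKT replicate 2, 1 without WT stage 1-2 replicate 2 or KO iNKT replicate 1, and 5 without WT stage 1-2 replicate 3. It was 0 with median scaling and when the 2 groups were fitted alone, and the authors' normalized table gave 2 higher and 2 lower. Slc2a6 (1.13 ± 0.30, adjusted p = 0.0518) lay just outside the threshold, and Slc15a3 (1.09 ± 0.34, adjusted p = 0.0902) was not called either. Here 3 of 12 myeloid markers and 1 of 4 markers of double-positive thymocytes were higher in KO iNKT cells and 3 of 6 iNKT markers lower. Their part in the result was not tested.

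In KO T against WT T cells limma called 0 of the 112 carriers, where 0.146% of all genes were called (0.117% higher and 0.0292% lower). Without adjustment 9 carriers had a p under 0.05, where 9.46% of all genes had one, and the alternatives that were run called 0 as well. The lowest adjusted p was that of the mitochondrial pyrimidine nucleotide carrier Slc25a36 (1.13 ± 0.30, adjusted p = 0.173), at 5.05, 4.86 and 5.77 in WT T and 5.99, 6.21 and 6.87 in KO T cells, without overlap. Slc7a5 stood at 7.45, 7.42 and 7.83 in WT T and 6.99, 6.37 and 6.66 in KO T cells (-0.89 ± 0.27, adjusted p = 0.282). Slc12a7 stood at 7.58, 7.62 and 7.85 in WT T and 8.36, 8.48 and 8.89 in KO T cells (0.89 ± 0.34, adjusted p = 0.442). In both genes the groups did not overlap either, but none of these carriers was called, and the share of all genes without overlap was not counted.

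The difference between the KO effect in iNKT cells, against WT stage 1-2, and that in T cells was tested as an interaction, which limma called for 0 carriers where 0.175% of all genes were called (0.132% higher and 0.0439% lower). Without adjustment 8 carriers had a p under 0.05, where 8.63% of all genes had one. The lowest adjusted p was 0.343, for Slc27a4 (1.04 ± 0.35), and Slc17a9, the vesicular nucleotide carrier, had 1.11 ± 0.40 with an adjusted p of 0.388. The count was 2 without WT stage 1-2 replicate 3 and 1 without KO iNKT replicate 3.

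WT stage 1-2 iNKT cells differed from WT T cells in 29 carriers, 18 higher and 11 lower, 25.9% of the 112 where 23.4% of all genes were called (11.5% and 11.9%). The higher ones were led by Slc39a4 (2.10 ± 0.28), Slc2a6 (at least 2.89-fold), Slc29a1 (1.70 ± 0.25), Slc15a3 (at least 1.98-fold) and Slc7a5 (1.27 ± 0.27), and the lower ones by Slc12a7 (-1.95 ± 0.34), Slc17a9 (-1.61 ± 0.28), the zinc carrier Slc30a6 (-1.20 ± 0.28), Slc9a3r1 (-1.14 ± 0.27) and the Golgi carrier of the sulfate donor PAPS, Slc35b3 (-1.13 ± 0.26). These 10 were among the 14 calls that held with each array left out, with Slc25a1, Slc39a11, Slc44a2 and Slc48a1. The groups did not overlap for any of the 29, but the share of all called genes without overlap was not counted, so this adds nothing to the calls. The count was 19 without WT T replicate 2. For Slc35c2, a Golgi Slc35 member (0.89 ± 0.25), 2 other probes gave -0.12 (adjusted p = 0.827) and 0.53 (adjusted p = 0.145), so that the probes disagree in sign.

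WT stage 3 iNKT cells differed from WT T cells in 25 carriers, 15 higher and 10 lower, 22.3% of the 112 where 23.1% of all genes were called (10.6% and 12.5%). The higher ones were led by Slc39a4 (2.79 ± 0.28), Slc16a6 (1.89 ± 0.28), the endosomal sodium-proton exchanger Slc9a9 (1.87 ± 0.31), the thiamine carrier Slc19a2 (at least 1.92-fold) and Slc3a2 (1.22 ± 0.35). The lower ones were led by Slc17a9 (-1.32 ± 0.28), Slc4a1ap (-1.02 ± 0.35), Slc35g1 (-1.01 ± 0.32), the mitochondrial aspartate-glutamate carrier Slc25a12 (-0.99 ± 0.34) and the taurine carrier Slc6a6 (-0.98 ± 0.23). Slc39a4, Slc16a6, Slc9a9, Slc19a2, Slc8b1, Slc35e1, Slc17a9, Slc6a6 and Slc35c1 held with each array left out. Slc3a2, Slc4a1ap, Slc35g1 and Slc25a12 did not, with adjusted p up to 0.0913, 0.222, 0.0988 and 0.195. The count was 16 without WT T replicate 2, and median scaling gave 13 higher and 3 lower. Both comparisons with T cells share the WT T arrays. All 11 called of the 12 myeloid markers were higher in stage 1-2 than in WT T cells, and 5 of the 12 in stage 3. Of the 5 markers of B and antigen-presenting cells 5 were higher in stage 1-2, and 4 were higher and 1 lower in stage 3. Of the 4 markers of double-positive thymocytes 2 were higher in stage 1-2 and 1 in stage 3. Their part in these results was not tested.

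**Figure D2:**
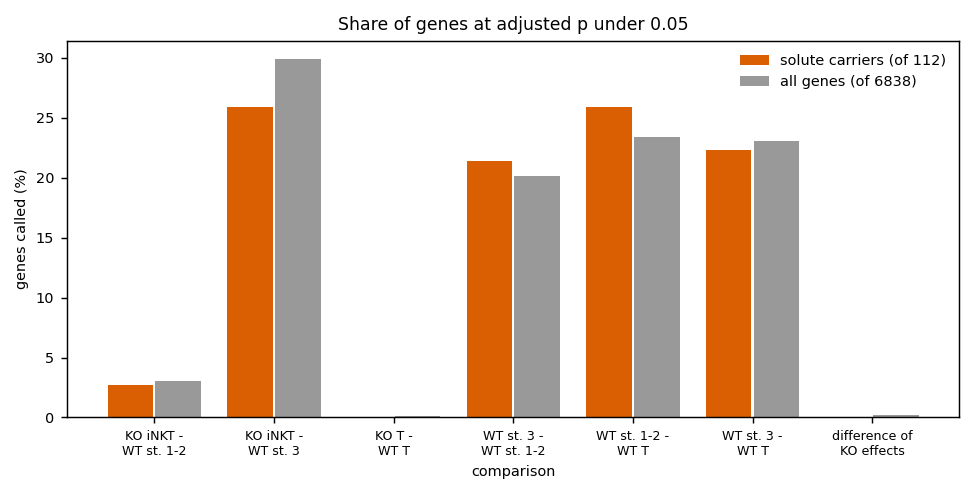
Percent of genes at an adjusted p under 0.05 in each of the 7 comparisons, for the 112 solute carriers (orange) and for all 6838 genes (grey). In each comparison the carriers lie near all genes, from 0% in KO T against WT T cells to 25.9% against 29.9% in KO iNKT against WT stage 3 cells.

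Among carriers of amino acids and peptides, the lysosomal peptide and histidine carrier Slc15a3 was detected on all arrays of WT stage 1-2 and KO iNKT cells. It stood at 5.25, 5.44 and 7.14 in WT stage 1-2, at 4.54, 4.45 and 4.40 in WT stage 3 cells, against 6.95, 7.22 and 6.90 in KO iNKT cells, and no array of WT stage 3, WT T or KO T cells detected it. WT stage 1-2 replicate 3 was the high array of its group and lay within the KO iNKT range. That array also had the highest level of its group in the markers of B and antigen-presenting cells (10.40, against 9.45 and 8.84) and of double-positive thymocytes (6.29, against 5.35 and 5.29). Their part in its level was not tested. Against the detection limit it was at least 1.85-fold lower in WT stage 3 than in stage 1-2 cells (means 4.46 and 5.94, adjusted p = 0.00529) and at least 3.93-fold higher in KO iNKT than in WT stage 3 cells (means 7.03 and 4.46, adjusted p = 2.57e-05). Slc15a4, its relative in endolysosomes, stood at 7.24 ± 0.38 (SD, n = 3) in WT stage 1-2, 7.07 ± 0.40 in WT stage 3 cells and 7.55 ± 0.05 in KO iNKT cells, with no call between any of the pairs tested.

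The leucine importer chain Slc7a5 stood at 8.52, 8.91 and 9.09 in WT stage 1-2, at 8.51, 7.60 and 7.61 in WT stage 3 cells, against 8.73, 8.70 and 9.28 in KO iNKT cells. WT stage 3 replicates 2 and 3 lay well below the rest, and replicate 1 just under the lowest stage 1-2 array. It was 0.93 ± 0.27 lower in stage 3 than in stage 1-2 cells (-0.93, adjusted p = 0.0217), a call that was lost without replicate 2 or 3 of either group (adjusted p up to 0.0864). It was 1.00 ± 0.27 higher in KO iNKT than in stage 3 cells (adjusted p = 0.0104) and 1.27 ± 0.27 higher in stage 1-2 than in WT T cells (adjusted p = 0.00225), and both of these calls held with each array left out. Its partner Slc3a2 stood at 5.76, 5.74 and 5.11 in WT stage 1-2, 6.61, 5.61 and 5.61 in WT stage 3, 6.14, 4.75 and 6.18 in KO iNKT and 4.58, 4.66 and 4.94 in WT T cells. The iNKT groups overlapped, and the difference called was the one between WT stage 3 and WT T cells (1.22 ± 0.35, adjusted p = 0.0183).

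**Figure D3:**
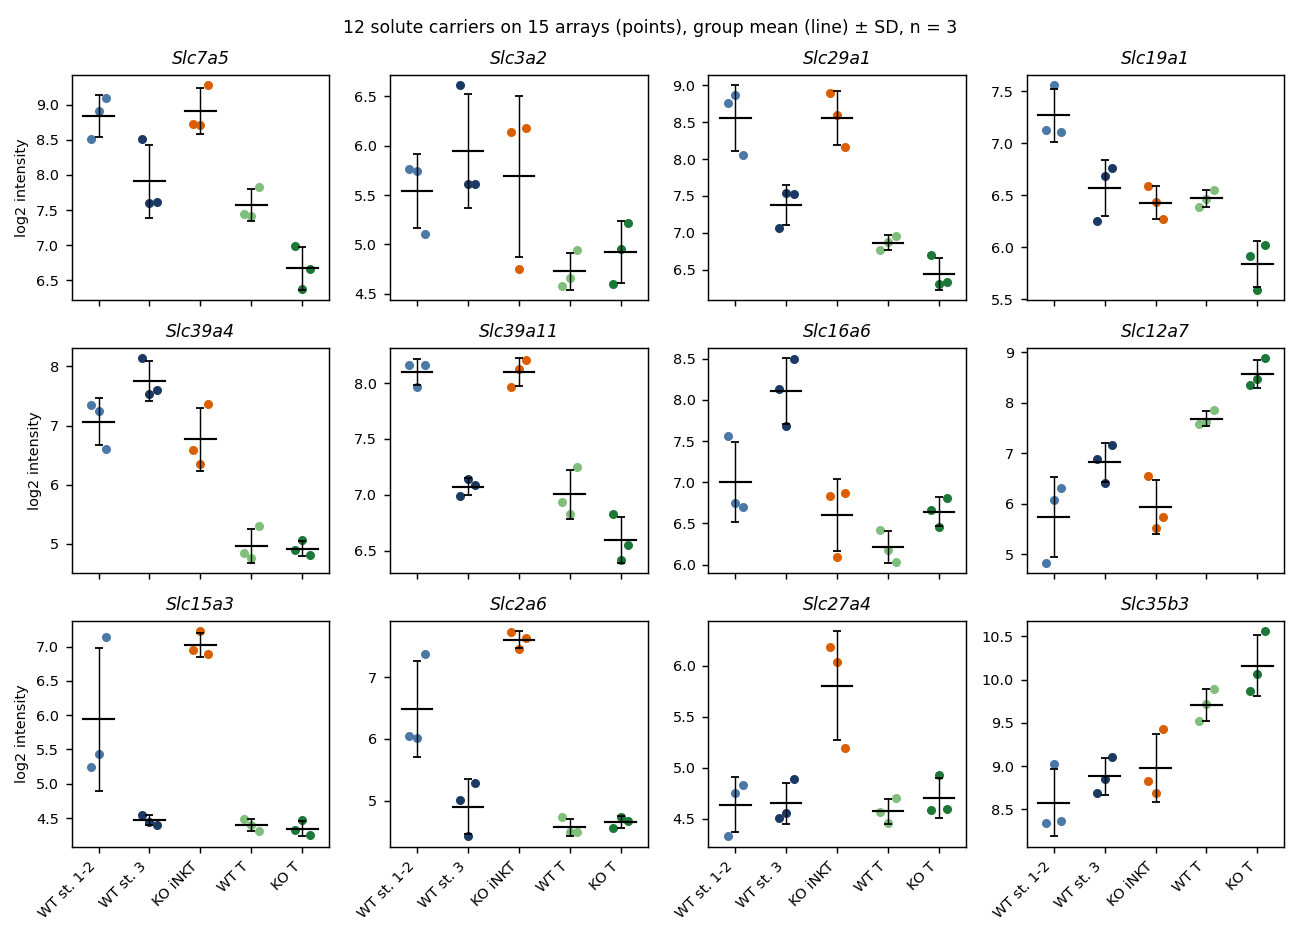
Log2 intensity of 12 solute carriers on each of the 15 arrays (points), with the group mean (line) ± SD, n = 3. Slc7a5, Slc29a1 and Slc39a11 are high in WT stage 1-2 and KO iNKT cells, Slc39a4 and Slc16a6 are highest in WT stage 3 cells, and Slc12a7 and Slc35b3 are highest in KO T cells.

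The taurine carrier Slc6a6 stood at 8.22, 7.70 and 7.16 in WT stage 3 cells, against 8.78, 8.63 and 8.74 in KO iNKT cells, with WT T cells at 8.76, 8.64 and 8.61. The 3 stage 3 arrays lay below all arrays of both other groups. Slc6a6 was 1.03 ± 0.23 higher in KO iNKT than in WT stage 3 cells (adjusted p = 0.00336). Slc17a9, which loads vesicles with ATP, stood at 4.55, 5.13 and 5.23 in WT stage 1-2, 5.53, 4.55 and 5.71 in WT stage 3, compared with 6.41, 6.99 and 6.34 in WT T cells, above all 6 WT iNKT arrays. Among the Slc38 glutamine carriers, Slc38a1 was 0.78 ± 0.23 higher in stage 3 than in stage 1-2 cells (adjusted p = 0.0212). With 1 array left out its adjusted p was up to 0.0790, and its other calls are given below. By its brightest probe Slc38a2, at group means of 8.61 to 9.36, was not called among the 5 groups (adjusted p of the F-test 0.204). Another of its probes gave 0.68 in stage 3 against stage 1-2 cells (adjusted p = 0.0406). In stage 3 against WT T cells that probe gave 0.77 (adjusted p = 0.0185). A dimmer probe gave 0.34 and 0.03 in these comparisons (adjusted p = 0.433 and 0.952). The relatives Slc66a2 and Slc66a1, the latter a lysosomal exporter of cationic amino acids, were 1.75 ± 0.35 and 0.93 ± 0.32 higher in KO iNKT than in WT stage 3 cells (adjusted p = 0.0013 and 0.0383), and the call of Slc66a1 was lost without replicate 1 or 2 of either group (adjusted p up to 0.149).

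Slc2a6 is the glucose transporter family member GLUT6 of lysosomes. It stood at 6.06, 6.01 and 7.39 in WT stage 1-2, 5.01, 4.42 and 5.28 in WT stage 3 cells, against 7.73, 7.46 and 7.64 in KO iNKT cells, and no T cell array detected it. All KO iNKT arrays lay above all WT iNKT arrays, and WT stage 1-2 replicate 3 lay just below them. It was 2.71 ± 0.30 higher in KO iNKT than in WT stage 3 cells (adjusted p = 4.45e-06). Slc50a1, a sugar carrier of the SWEET family, went the other way, at 6.49, 7.67 and 7.31 in WT stage 1-2, 8.02, 8.04 and 7.86 in WT stage 3 cells, against 6.70, 7.08 and 7.12 in KO iNKT cells. It was 1.01 ± 0.25 lower in KO iNKT than in stage 3 cells (-1.01, adjusted p = 0.00631), and its rise from stage 1-2 to stage 3 (0.82 ± 0.25) was lost without WT stage 1-2 replicate 1 (adjusted p = 0.142) and without each stage 3 array. Of the glucose and lactate carriers that were left out, Slc2a1 showed a mean of 7.85 in stage 3 and 6.92 in stage 1-2 cells (0.93 ± 0.20, adjusted p = 0.00286), and Slc16a1 and Slc16a3 had no probe past the filter.

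Slc16a6, a member of the monocarboxylate transporter family, stood at 7.57, 6.75 and 6.70 in WT stage 1-2, 8.13, 7.69 and 8.49 in WT stage 3, 6.84, 6.10 and 6.86 in KO iNKT and 6.42, 6.18 and 6.04 in WT T cells. The 3 stage 3 arrays lay above all others. Slc16a6 rose by 1.10 ± 0.28 from stage 1-2 to stage 3 (adjusted p = 0.01), where its second probe gave 0.39 (adjusted p = 0.471), and was 1.50 ± 0.28 lower in KO iNKT than in stage 3 cells (-1.50, adjusted p = 0.000598). Slc22a5, which imports carnitine, had group means of 6.05 to 6.85 and was called by the F-test (adjusted p = 0.0404) but in no single comparison. The organic anion carrier Slc22a7, lower in KO iNKT than in stage 3 cells (-1.05 ± 0.32, adjusted p = 0.0208), overlapped between these groups, and its call was lost without WT stage 3 replicate 2 (adjusted p = 0.116) and without KO iNKT replicates 1 or 2.

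Mitochondrial carriers had 19 of 39 members past the filter, of which the F-test called 9. In WT stage 3 against WT T cells 3 were higher and 2 lower, where 23.1% of all genes were called. In each of the other comparisons 0 to 2 were called, where 0.146% to 29.9% of all genes were. The ADP/ATP exchanger Slc25a5 had group means of 11.31 to 11.76 and was not called by the F-test (adjusted p = 0.228). The phosphate carrier Slc25a3 stood at 10.06, 10.10 and 10.62 in WT stage 3, compared with 9.37, 9.31 and 9.64 in WT T cells (0.82 ± 0.22, adjusted p = 0.0108, and 0.0576 without WT stage 3 replicate 3). Slc25a38, which brings glycine into mitochondria for heme synthesis, stood at 7.95, 8.56 and 8.44 in WT stage 1-2, 9.15, 9.35 and 9.44 in WT stage 3 cells, against 8.47, 8.34 and 8.69 in KO iNKT cells. The stage 3 arrays lay above all others of the iNKT groups, and the rise of 0.99 ± 0.20 (adjusted p = 0.00199) held with each array left out, while 2 further probes gave 0.79 and 0.66 (adjusted p = 0.182 and 0.0544). The citrate carrier Slc25a1 stood at 6.35, 6.56 and 6.75 in WT stage 1-2 and 5.83, 4.91 and 5.51 in WT T cells, 1.14 ± 0.26 higher in the former (adjusted p = 0.00347). The pyrimidine nucleotide carrier Slc25a33 was higher than in WT T cells in both WT iNKT stages (0.95 ± 0.24 and 0.88 ± 0.24), and both calls were lost without WT T replicate 2 (adjusted p = 0.0534 and 0.0761).

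Among carriers of nucleosides, Slc29a1, the equilibrative nucleoside transporter ENT1 of the plasma membrane, stood at 8.76, 8.88 and 8.05 in WT stage 1-2, 7.06, 7.54 and 7.52 in WT stage 3, 8.90, 8.59 and 8.17 in KO iNKT and 6.76, 6.87 and 6.96 in WT T cells. WT stage 1-2 and KO iNKT arrays overlapped and lay above all others. It was 1.19 ± 0.25 lower in stage 3 than in stage 1-2 cells (-1.19, adjusted p = 0.00262) and 1.70 ± 0.25 higher in stage 1-2 than in WT T cells (adjusted p = 7.88e-05), and its E-box is shown above. The lysosomal nucleoside carrier Slc29a3 stood at 7.29, 6.69 and 7.54 in WT stage 1-2, 5.72, 5.47 and 6.22 in WT stage 3 cells, against 7.83, 7.44 and 7.38 in KO iNKT cells, with the stage 3 arrays below all others. The sodium-coupled nucleoside carrier Slc28a2 passed the filter through WT T cells alone. Its detection on all 3 WT T arrays (5.23, 5.42 and 5.72) was thus required for it to be tested. No array of WT stage 1-2 or KO iNKT cells detected it, and no comparison called it (lowest adjusted p 0.0543, WT stage 1-2 against WT T).

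Among Golgi carriers, those of PAPS and GDP-fucose were higher in WT T cells than in both WT iNKT stages by their brightest probes. Slc35b3 stood at 8.34, 9.02 and 8.37 in WT stage 1-2, 8.69, 8.85 and 9.11 in WT stage 3, compared with 9.52, 9.71 and 9.89 in WT T cells, and both WT iNKT groups lay below WT T cells. Its difference was -1.13 ± 0.26 in stage 1-2 (adjusted p = 0.00355), where 2 other probes gave -0.90 and -0.18 (adjusted p = 0.0174 and 0.683). In stage 3 it was -0.83 ± 0.26 (adjusted p = 0.0259, up to 0.0967 with 1 array left out), and the 2 other probes gave -0.60 and -0.10 (adjusted p = 0.105 and 0.841). The GDP-fucose carrier Slc35c1 stood at 9.78, 9.76 and 9.76 in WT T and 8.97, 9.29 and 8.95 in WT stage 3 cells (-0.70 ± 0.18, adjusted p = 0.00874), and its difference in stage 1-2 was -0.59 ± 0.18 (adjusted p = 0.0223, up to 0.0713 with 1 array left out). A second probe of Slc35c1 gave -0.61 in stage 3 and -0.50 in stage 1-2 (adjusted p = 0.0681 and 0.141). Slc35e1, an orphan of the family, went the other way, at 8.22, 7.79 and 7.93 in WT stage 3, 7.27, 6.81 and 6.92 in KO iNKT and 7.17, 6.95 and 7.08 in WT T cells, with stage 3 above all others. The endoplasmic reticulum carrier of adenine nucleotides Slc35b1 was 0.66 ± 0.20 higher in stage 1-2 than in WT T cells (adjusted p = 0.0208, up to 0.0787 with 1 array left out).

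Among the metal carriers, the zinc importer Slc39a4 (ZIP4) stood at 7.34, 7.24 and 6.61 in WT stage 1-2, 8.14, 7.53 and 7.60 in WT stage 3, 6.59, 6.35 and 7.36 in KO iNKT, 4.84, 4.76 and 5.30 in WT T and 4.89, 5.06 and 4.81 in KO T cells. All 9 iNKT arrays lay above all 6 T cell arrays, and 1 of 3 WT T arrays detected it. It was 2.79 ± 0.28 higher in WT stage 3 than in WT T cells (adjusted p = 8.21e-07) and 2.10 ± 0.28 higher in WT stage 1-2 (adjusted p = 2.76e-05). Its level in KO iNKT below WT stage 3 cells (-0.99 ± 0.28, adjusted p = 0.012) was lost without KO iNKT replicate 2 (adjusted p = 0.0715) or WT stage 3 replicate 1.

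Slc39a11 (ZIP11), of the zinc importer family, stood at 8.17, 7.96 and 8.17 in WT stage 1-2, 6.99, 7.14 and 7.09 in WT stage 3, 7.97, 8.13 and 8.21 in KO iNKT and 6.93, 6.82 and 7.25 in WT T cells. WT stage 1-2 and KO iNKT cells overlapped, and both lay above all other arrays. It was 1.03 ± 0.19 lower in stage 3 than in stage 1-2 cells (-1.03, adjusted p = 0.000941), and this call, that against WT T cells (1.10 ± 0.19) and that in KO iNKT against stage 3 cells (1.03 ± 0.19) held in every setting that was run. The zinc exporter Slc30a1 (ZnT1), whose metal response element core is shown above, stood at 5.93, 6.15 and 5.42 in WT stage 3, compared with 4.68, 4.66 and 4.89 in WT T cells (1.09 ± 0.29, adjusted p = 0.0105, and 0.0513 without WT stage 3 replicate 2). Slc39a6 was 0.76 ± 0.24 higher in the same comparison (adjusted p = 0.0302, up to 0.13 with 1 array left out).

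The divalent metal importer Slc11a2 (DMT1) stood at 4.52, 5.44 and 5.15 in WT stage 1-2, 5.85, 6.30 and 6.33 in WT stage 3 cells, against 5.43, 5.65 and 5.38 in KO iNKT cells. All stage 3 arrays lay above both other iNKT groups, and the rise from stage 1-2 was 1.12 ± 0.27 (adjusted p = 0.00777, and 0.0907 without the 2 arrays with the fewest detected probes). Its relative Slc11a1 (NRAMP1), known from phagosomes of macrophages, stood at 8.08, 7.12 and 7.27 in WT stage 3, 8.86, 8.28 and 8.76 in KO iNKT and 7.53, 7.87 and 7.26 in WT T cells. It was 1.15 ± 0.29 higher in KO iNKT than in stage 3 cells (adjusted p = 0.00721), while a second probe gave 0.79 (adjusted p = 0.0722). The copper importer Slc31a1 stood at 6.44, 5.38 and 5.98 in WT stage 1-2 cells, against 6.29, 5.68 and 5.93 in KO iNKT cells and was detected on no WT stage 3 array, where it was at least 1.84-fold lower than in stage 1-2 cells (means 4.63 and 5.93, adjusted p = 0.00181). The heme carrier Slc48a1 was higher than in WT T cells in stage 1-2 (1.02 ± 0.23, adjusted p = 0.00398) and in stage 3 (0.84 ± 0.23, adjusted p = 0.0143, and 0.0857 without WT stage 3 replicate 2).

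Slc12a7 (KCC4), which exports potassium with chloride, was the ion carrier with the widest range. It stood at 4.82, 6.06 and 6.31 in WT stage 1-2, 6.88, 6.41 and 7.16 in WT stage 3, 6.55, 5.51 and 5.74 in KO iNKT, 7.58, 7.62 and 7.85 in WT T and 8.36, 8.48 and 8.89 in KO T cells. All 6 T cell arrays lay above all 9 iNKT arrays. It was 1.95 ± 0.34 lower in stage 1-2 than in WT T cells (-1.95, adjusted p = 0.000468), and its rise from stage 1-2 to stage 3 (1.09 ± 0.34, adjusted p = 0.0333) was lost without WT stage 1-2 replicate 1 (adjusted p = 0.158) and without WT stage 3 replicates 1 or 3. Slc12a2 (NKCC1), which imports sodium, potassium and chloride, went the other way, at 6.92, 7.15 and 6.46 in WT stage 1-2 and 6.04, 5.66 and 6.0 in WT T cells (0.95 ± 0.25, adjusted p = 0.0107, lost without WT stage 1-2 replicate 2 or WT T replicate 2, up to 0.0584).

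The endosomal exchanger Slc9a9 stood at 6.85, 6.41 and 5.65 in WT stage 1-2, 6.51, 7.16 and 7.21 in WT stage 3, compared with 5.19, 4.90 and 5.17 in WT T cells, with both WT iNKT groups above the T cells. Slc8b1, the sodium-calcium exchanger of mitochondria, stood at 6.84, 6.84 and 6.87 in WT stage 1-2, 6.97, 7.22 and 6.67 in WT stage 3, compared with 5.72, 6.42 and 5.85 in WT T cells. It was 0.95 ± 0.24 higher in stage 3 (adjusted p = 0.00701) and 0.85 ± 0.24 higher in stage 1-2 than in WT T cells (adjusted p = 0.0146, up to 0.0783 with 1 array left out). The phosphate importer Slc20a1 was called by the F-test (adjusted p = 0.0256), with group means of 4.98 to 6.20, but in no single comparison.

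**Figure D4:**
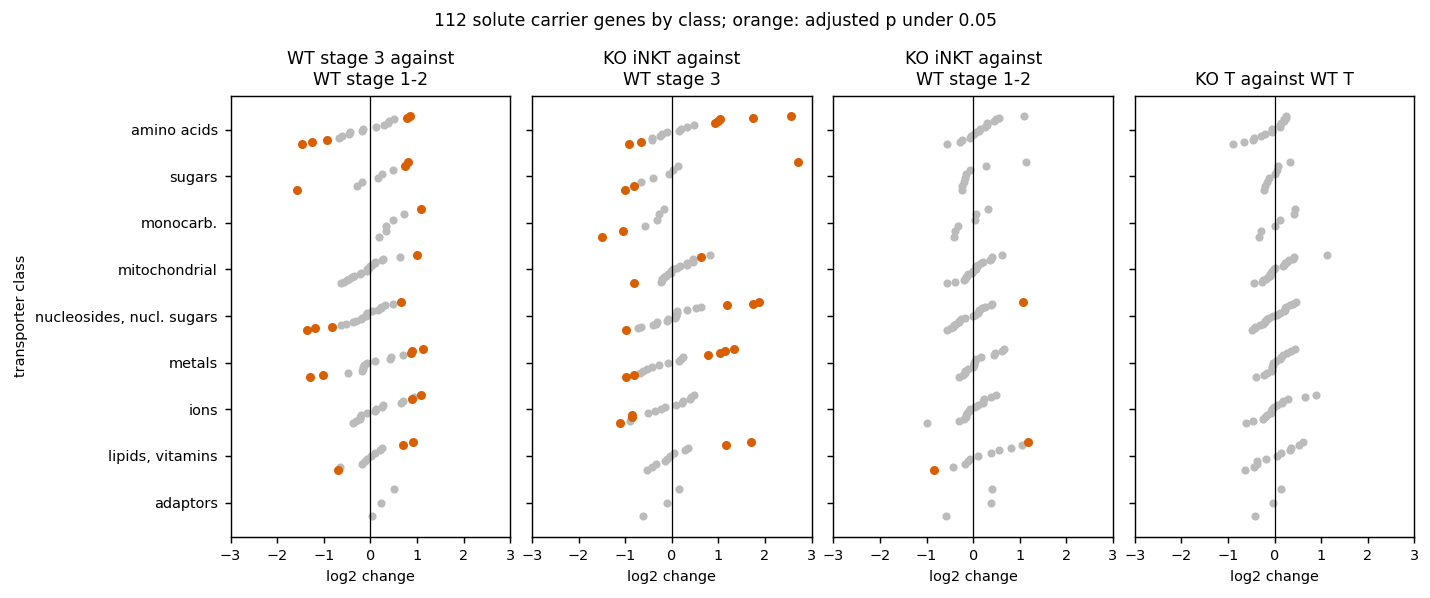
Log2 change of each of the 112 solute carriers in 4 comparisons, by cargo, with carriers at an adjusted p under 0.05 in orange. Calls lie on both sides of 0 in 5 of the 9 classes for WT stage 3 against WT stage 1-2 and in 5 for KO iNKT against WT stage 3, and no carrier is called in KO T against WT T cells.

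Vitamin and lipid carriers moved one by one. Slc19a1, the folate importer named above, was 0.70 ± 0.21 lower in stage 3 than in stage 1-2 cells (-0.70, adjusted p = 0.0241, up to 0.106 with 1 array left out), and stood at 6.39, 6.46 and 6.55 in WT T and 5.91, 5.59 and 6.02 in KO T cells. The thiamine carrier Slc19a2 stood at 5.79, 5.62 and 6.28 in WT stage 3 cells, against 5.59, 5.66 and 6.16 in KO iNKT cells and was detected on no WT T array (mean 4.63), at least 1.92-fold below stage 3 cells (mean 5.90, adjusted p = 0.00169). The choline transporter-like protein Slc44a2 stood at 9.87, 9.44 and 9.58 in WT stage 1-2, 10.18, 10.37 and 10.46 in WT stage 3, compared with 10.32, 10.62 and 10.36 in WT T cells, and its stage 1-2 level lay below WT T cells (-0.81 ± 0.20, adjusted p = 0.00744). Slc46a3 stood at 5.81, 4.84 and 6.62 in WT stage 3 cells, against 7.53, 8.06 and 6.74 in KO iNKT cells, without overlap.

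Of 17 carriers listed as known from myeloid cells 8 were tested: Slc11a1, Slc15a3, Slc48a1, Slc29a3, Slc2a6, Slc46a3, Slc9a9 and Slc16a9. In KO iNKT against WT stage 3 cells 5 of them were higher and 1 lower (median log2 change 1.42, against -0.01 for all genes, of which 29.9% were called). In WT stage 3 against stage 1-2 cells 3 were lower and 0 higher (median -0.56, against 0.00, with 20.1% called). Against WT T cells 4 were higher and 0 lower in stage 1-2 and 2 higher and 1 lower in stage 3, where 23.4% and 23.1% of all genes were called. Their array means were 6.33 to 6.83 in WT stage 1-2, 5.77 to 6.13 in WT stage 3, 6.96 to 7.30 in KO iNKT, 5.61 to 5.75 in WT T and 5.69 to 5.79 in KO T cells. By group mean the order was that of the 12 myeloid markers, with KO iNKT cells highest, then WT stage 1-2, WT stage 3 and the T cells. By array the markers of KO iNKT replicate 3 (9.57) lay within the WT stage 1-2 range (9.31 to 9.82), whereas these carriers did not overlap between the 2 groups. Of these carriers Slc11a1, Slc16a9, Slc29a3, Slc46a3 and Slc48a1 were detected on all 6 T cell arrays, and Slc15a3 and Slc2a6 on none. The part of myeloid cells in these levels was not tested.

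**Figure D5:**
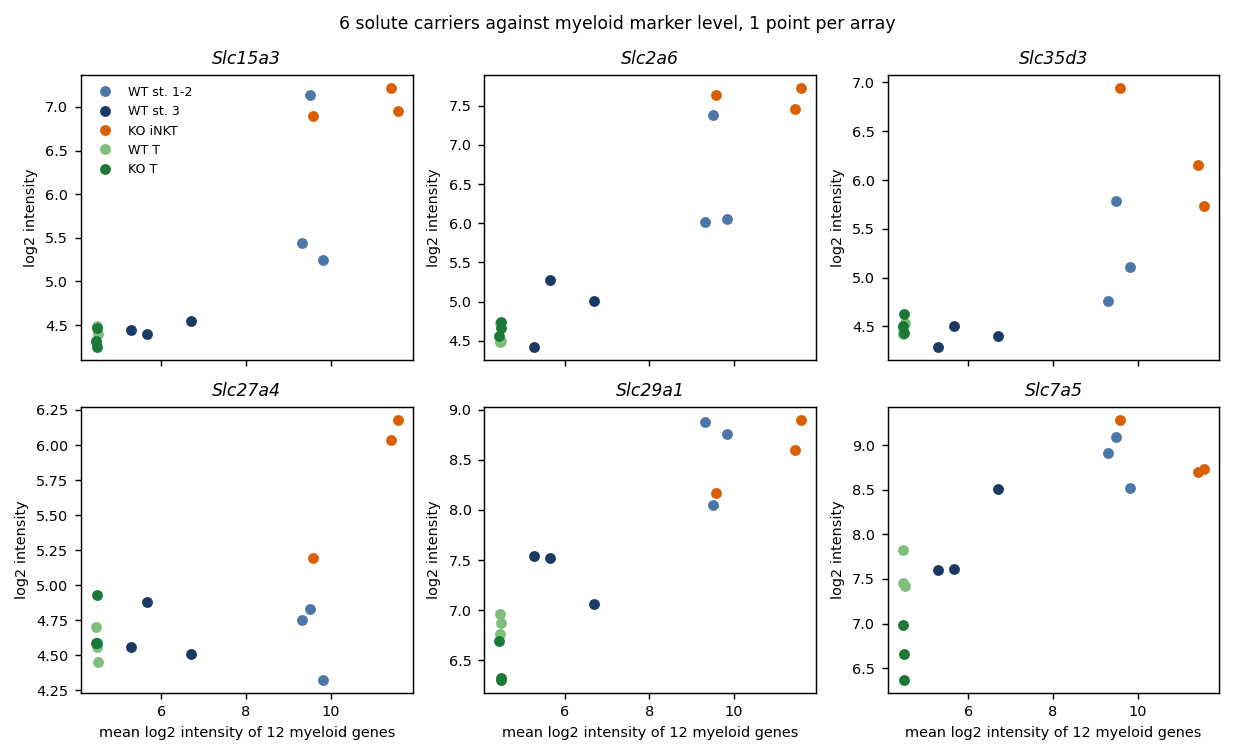
Log2 intensity of 6 solute carriers against the mean log2 intensity of the 12 tested myeloid markers, with 1 point per array, coloured by group. Slc15a3, Slc2a6 and Slc35d3 are highest on arrays of KO iNKT and WT stage 1-2 cells, where the myeloid level is high, and Slc27a4 is high on the KO iNKT arrays alone. Slc27a4 and Slc35d3 passed the detection filter through KO iNKT cells alone, so their high level there follows in part from the filter. The 3 WT stage 1-2 arrays lie close in myeloid level, and replicate 3, which has the highest B and antigen-presenting cell markers of the 3, is highest in Slc15a3 and Slc2a6. Among the KO iNKT arrays replicate 3 has the lowest myeloid level (9.57, against 11.58 and 11.43). It is the highest of its group in Slc35d3 and Slc7a5, the lowest in Slc27a4 and Slc29a1, and close to the others in Slc15a3 and Slc2a6.

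Of 30 carriers listed as known from lymphocyte metabolism 21 were tested. Those not tested included Slc1a5, Slc7a1, Slc43a2, Slc7a11 and Slc46a1. In WT stage 3 against stage 1-2 cells 4 were higher (Slc38a1, Slc12a7, Slc11a2 and Slc44a2) and 3 lower (Slc7a5, Slc19a1 and Slc29a1), with a median log2 change of 0.13, where 20.1% of all genes were called. In KO iNKT against WT stage 3 cells 3 were higher (Slc7a5, Slc29a1 and Slc6a6) and 1 lower (Slc38a1), where 29.9% of all genes were called. Against WT T cells, stage 1-2 cells had 5 higher (Slc7a5, Slc29a1, Slc19a1, Slc12a2 and Slc25a1) and 3 lower (Slc12a7, Slc11a2 and Slc44a2), and stage 3 cells 4 higher (Slc3a2, Slc38a1, Slc39a6 and Slc25a3) and 1 lower (Slc6a6), where 23.4% and 23.1% of all genes were called. The call of Slc38a1 against WT T cells (0.65, adjusted p = 0.0458) was lost in all 8 other settings and had an adjusted p of up to 0.17 with 1 array left out. That in KO iNKT cells (-0.66, adjusted p = 0.035) was lost in 5 of 8 settings. In KO T against WT T cells none of the 21 was called. The list thus moved in both directions in each comparison with more than 1 call.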

How the data were processed

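Sorted thymic iNKT and T cells of 5 groups were measured on 15 Illumina bead arrays, 3 a group, and the labels placed each array in its group. The probe signal intensities and detection p-values deposited by the authors came from GenomeStudio, per the submitters' processing notes, and the intensities carry no further normalization, per the file headers. The authors' normalized intensities, deposited as a value table, served as an alternative.

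Intensities were background-corrected with normexp from the detection p-values, then quantile normalized and log2-transformed (neqc, offset 16) in limma 3.58.1 under R 4.3.3. A probe was kept if all 3 arrays of some group detected it (detection p under 0.05), and the brightest such probe stood for its gene. Of 25697 probes 23978 had 1 gene symbol, 0 several and 1719 none. One linear model per gene with empirical Bayes moderation covered the 15 arrays and 6838 genes (10 residual degrees of freedom), with Benjamini-Hochberg adjustment within each of 7 comparisons. The procedure was tested on simulated data. Where no array of the dimmer group detected a gene, it has a bound in place of a fold, the mean of the brighter group over the mean of, per array, the higher of the lowest detected signal and the dim probe's own. The number of arrays limits the precision.

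Genes were named by rule: up to 5 rises and 5 falls per comparison with groups that do not overlap, up to 3 per cargo class with the smallest adjusted p, the brightest carriers, and the listed carriers. Slc66a1, Slc22a5, Slc25a36, Slc28a2 and the carriers named for the detection filter fall outside this rule and were chosen after their values were seen, as were the genes named under other observations. The members, cargo classes and gene lists were chosen with earlier results of these data known. Promoters were RefSeq sequences of GRCm38.p6. The slide could not be used as a block because no slide is given in the sources used here.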

Additional observations from a re-analysis of the deposited data

How the results depend on the processing

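Carriers called in KO iNKT against WT stage 1-2 cells numbered 3, but 0 with median scaling, 0 with the compared groups alone, 1 without the 2 arrays with the fewest detected probes (a setting chosen after seeing the data) and 0 to 5 with 1 array left out. In KO iNKT against WT stage 3 cells the 29 calls became 16 at a change of at least 2-fold, 15 with median scaling and 19 to 28 with 1 array left out. In WT stage 3 against stage 1-2 cells the 24 became 10, 7 and 14 to 19 in the same settings, 10 with the compared groups alone and 10 without the 2 weakest arrays. Against WT T cells the 29 of stage 1-2 became 16 at 2-fold and 19 to 29 with 1 array left out, and the 25 of stage 3 became 9 at 2-fold, 16 with median scaling and 16 to 26. The 0 of KO T against WT T cells was 0 in each setting, and the 0 of the interaction was 0 to 2 with 1 array left out. The F-test's 55 became 47 to 57 with 1 array left out. Median scaling moved the median log2 change of all genes to 0.15, 0.12, 0.12 and 0.20 in KO iNKT against WT stage 1-2, KO iNKT against WT stage 3, WT stage 3 against WT T and the interaction. With the replicate block the counts were 3, 28, 0, 23, 30, 25 and 0 for KO iNKT against WT stage 1-2 and against stage 3, KO T against WT T, stage 3 against stage 1-2, stage 1-2 and stage 3 against WT T and the interaction, and 54 by the F-test, and of 110 calls 102 stayed, with Slc19a1 in KO iNKT against WT stage 1-2 (adjusted p = 0.0519) and Slc4a1ap and Slc38a1 in stage 3 against WT T cells (0.0577 and 0.0582) among those lost. The numbers were not taken to pair arrays: of 30 same-numbered pairs 3 correlated above 0.1 (r from -0.233 to 0.481), and 2 of 15 arrays correlated best with their own number. No call changed sign in 660 refits without 1 array or in 977 with other settings, but the call was lost in 189 and 212 of these. The detection filter was not repeated in the refits without 1 array. Of 25 checks with another probe 7 stayed called, 16 kept the sign but were not called and 2 changed sign. These 2 were Slc4a3 at 0.19 and Slc35c2 at -0.12 (0.53 with its other probe). The causes were not tested. The slide block was not run, since no slide is given in the sources used here. Low signal limits the 210 carriers that did not pass the filter.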

Other observations

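Genes of amino acid synthesis and of the response to amino acid shortage, run by the transcription factor ATF4, had 11 of 20 listed members tested. In WT stage 3 against stage 1-2 cells 3 rose and 4 fell, where 20.1% of all genes were called. In KO iNKT against WT stage 3 cells 4 were higher and 2 lower (29.9% of all genes), and against WT T cells 4 were higher and 1 lower in stage 1-2 and 2 higher and 1 lower in stage 3 (23.4% and 23.1%). The genes that fell make asparagine, serine and one-carbon units: Asns (-1.06 ± 0.30, adjusted p = 0.019), Psat1 (-1.25 ± 0.24, adjusted p = 0.00147), Phgdh (-1.24 ± 0.31, adjusted p = 0.0103) and Mthfd2 (-1.11 ± 0.34, adjusted p = 0.0272). The genes that rose encode transcription factors: Atf4 itself (1.01 ± 0.23, adjusted p = 0.00542), Ddit3 (0.68 ± 0.23, adjusted p = 0.0449) and Cebpb (1.62 ± 0.30, adjusted p = 0.00101). Phgdh, the first enzyme of serine synthesis, stood at 7.81, 7.65 and 7.46 in WT stage 1-2 and at 6.61, 6.40 and 5.86 in KO iNKT cells, without overlap (-1.35 ± 0.31, adjusted p = 0.0249 by limma). Of 25 listed genes of lysosomal amino acid sensing and the kinase complex mTORC1 18 were tested, and 0 were called between the WT stages, where 20.1% of all genes were. Of the mitochondrial import list 5 of 10 were tested, and 4 fell in the same comparison of stage 3 with stage 1-2 cells. These were the outer membrane channels Vdac1 (-1.02), Vdac2 (-0.65) and Vdac3 (-0.87), and Mtch1 (-0.67).

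Transport proteins outside the solute carrier names also differed. Atp1b1, a subunit of the sodium-potassium pump, stood at 7.72, 6.98 and 7.70 in WT stage 1-2, 7.34, 7.48 and 7.79 in WT stage 3 and 8.85, 8.74 and 8.74 in KO iNKT cells, with the KO arrays above all WT iNKT arrays. It was 1.31 ± 0.24 higher than in stage 1-2 cells (adjusted p = 0.00648), and WT T cells had a mean of 9.06. In the list of 12 pumps and subunits, of which 7 were tested, 2 were lower in each WT iNKT stage than in WT T cells, Atp1b1 and Atp1b3. In these comparisons 23.4% (stage 1-2) and 23.1% (stage 3) of all genes were called. Embigin (Emb), a chaperone of monocarboxylate carriers, stood at 9.14, 8.94 and 8.90 in WT stage 1-2, 7.14, 7.55 and 8.35 in WT stage 3 and 9.70, 9.54 and 9.36 in KO iNKT cells, lowest in stage 3 (-1.31 ± 0.26 against stage 1-2, adjusted p = 0.00165). Slco4a1, an organic anion transporter, was detected on no WT T array (mean 4.63) and was at least 5.25-fold higher in stage 1-2 cells (mean 7.34, adjusted p = 4.24e-07). Of 46 ABC transporters 15 were tested, and 2 rose from stage 1-2 to stage 3, where 20.1% of all genes were called in either direction. Of 7 carriers listed as known from erythroid cells Slc25a38 and Slc14a1 were tested, and both were higher in the same comparison, where 20.1% of all genes were called. The call of Slc14a1 (0.90, adjusted p = 0.0264 by limma) was lost in 6 of 8 other settings, the authors' normalized table among them. With 1 array left out it was lost in 4 of 6 fits (adjusted p up to 0.0991). The 4 tested NK receptors had array means of 9.19 to 9.84 in WT stage 3 cells and of 5.09 to 5.66 in the other groups. These lists were chosen with earlier results known, and the myeloid levels given above move with the same iNKT comparisons.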
